A study of Mus musculus with 49 samples.

Results

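Cell cycle and DNA replication genes were followed through a time course of serum-transferred arthritis in the mouse. The set holds 56 named genes, 23 of DNA replication (S phase) and 33 of mitosis (G2/M phase), listed by name. On the array 52 of them were measured by a probe set annotated to that gene alone, 22 S and 30 G2/M genes, out of 8251 genes in all. Where a gene had several such probe sets, the one with the highest mean over the 49 arrays was taken. Tyms, Ccnb1, Cdc25b and Bub1b had no such probe set and are named only.

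Arthritis was induced by injected serum whose autoantibodies inflame the joints of healthy mice, and RNA was profiled on Affymetrix mouse arrays. All mice were male, of B6 background and 6 weeks of age, and all groups differ by tissue and by day after the first serum injection. Whole ankle was taken at day 0 (4 arrays), day 1 (2), day 3 (3), day 7 (4), day 12 (3) and day 18 (3). Synovial fluid cells came from day 3 (3), day 7 (4), day 12 (3) and day 18 (3), and blood leukocytes at days 0, 1, 3, 7 and 12 (3 each) and day 18 (2). There is no fluid from before day 3 and no group without serum other than day 0.

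Before a cell divides it must copy its DNA once and then part the copies. In G1 the MCM helicase is loaded on replication origins, E2F factors switch on the replication genes, and polymerases, clamp and nucleotide enzymes then copy the DNA in S phase. In G2 and mitosis Cdk1 with its cyclins, the Plk1 and Aurora kinases, the spindle motors and the condensins divide the chromosomes, and most resting tissue cells and circulating leukocytes hold little of these transcripts.

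Values are log2 intensities, and a difference between groups is a difference of log2 means ± SE from limma. A gene rose or fell only where its two-sided p was under 0.05 after Benjamini-Hochberg adjustment across the 8251 genes. The 95th percentile of 34 negative control probe sets was 6.85, and 29 of the 52 genes had no group mean above it in any tissue or day. A fold is given only where both means lay above that level, and values of different genes are not set against each other.

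The arrays had medians from 57.7 to 64.1 on the linear scale, and replicates of a group correlated at r of at least 0.941. At day 0 the ankle held transcripts of fibroblasts (8 of 13 markers above background) and muscle (7 of 10). Blood at day 0 held those of T cells (8 of 9), B cells (6 of 8) and mature neutrophils (7 of 10). Fluid at day 3 held those of mature neutrophils (8 of 10) and macrophages (12 of 12). Replicate 1 of ankle days 0, 1, 7 and 12 held liver transcripts, with Alb from 6.39 to 10.65, while the remaining 15 reached no more than 5.19. All ankle RNA passed through 2 rounds of amplification. Of the 13 fluid arrays 9 were described as isolated during dissection, 2 as washed out of the joint and 2 in another way. Of the 17 blood arrays 16 were described with MessageAmp and 1, day 3 replicate 3, in another way. Preparation thus differed with tissue, and the 2 cannot be told apart between tissues. The labels call only the blood samples biological replicates, so that for ankle and fluid the p-values measure the spread between samples that may be technical.

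In the ankle the division genes rose by day 7 of arthritis. Of the 52 genes 31 were higher at day 7 than at day 0 and 0 were lower, while 3.09% of all 8251 genes were higher and 3.64% lower. The rise took in 10 of 22 S genes and 21 of 30 G2/M genes. The median difference was 0.41 for the S genes and 0.86 for the G2/M genes, beside 0.00 for all genes. All 30 G2/M genes had a difference above 0, from 0.29 for Foxm1 to 2.04 for Top2a, and so had 20 of the 22 S genes. In 32 of the 52 genes every day 7 array lay above every day 0 array, which held for 4.01% of all genes. For 18 of the 31 genes that rose both means lay under the background level, so that their differences rest on weak signal. Cks2, Mad2l1, Tacc3 and Ect2, with large differences, were among them.

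**Figure D1:**
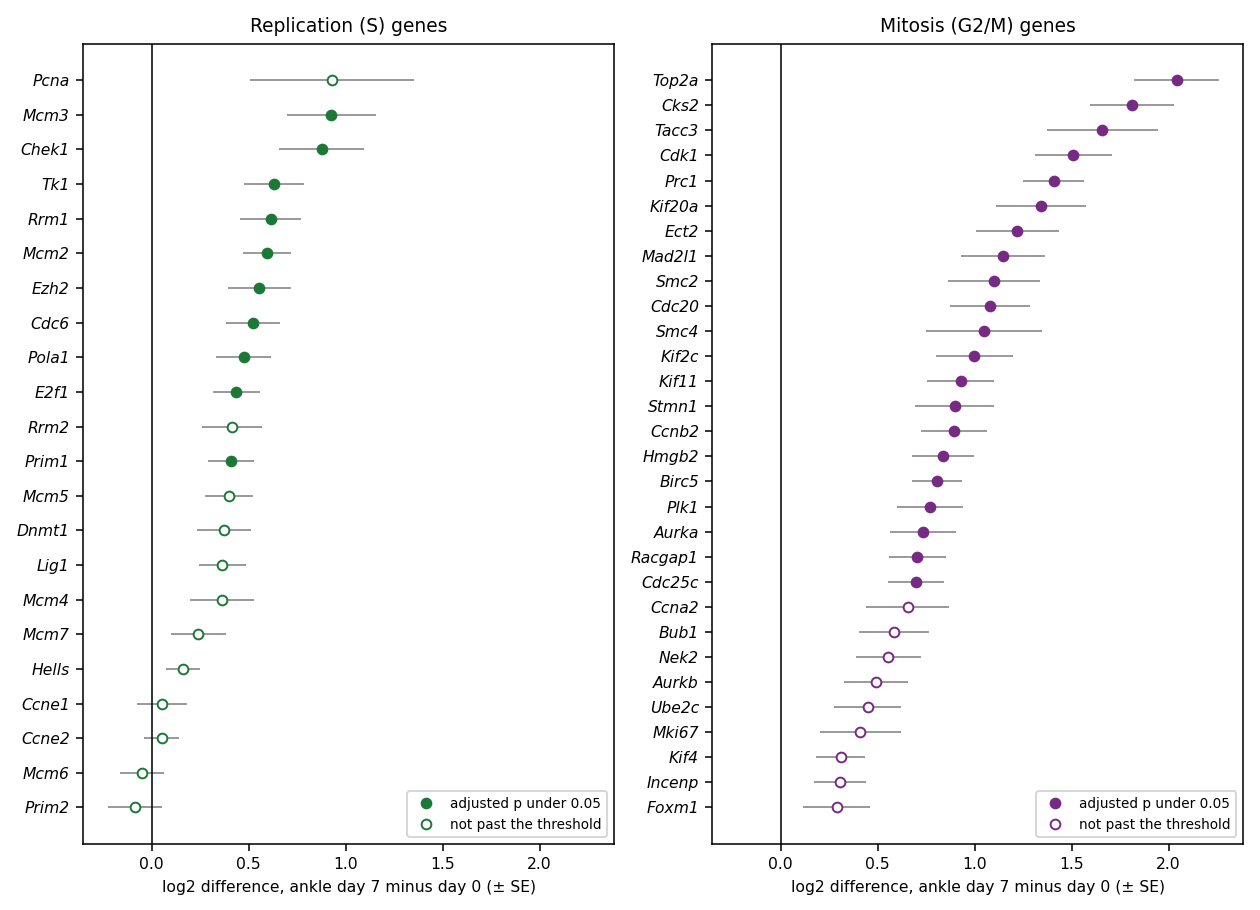
Difference in log2 intensity between ankle day 7 and day 0 (4 arrays each) for 22 replication genes (left) and 30 mitosis genes (right), as points with bars of 1 SE from limma. Filled points mark the 10 S and 21 G2/M genes with an adjusted p under 0.05. The G2/M genes run from 0.29 (Foxm1) to 2.04 (Top2a), and the S genes from -0.09 (Prim2) to 0.93 (Pcna and Mcm3).

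Among the genes that license and open replication origins, 3 of 7 rose at day 7. Mcm2, a subunit of the helicase ring, read 6.94, 6.96, 6.80 and 6.89 at day 0 and 7.53, 7.61, 7.42 and 7.41 at day 7. The groups did not overlap, and Mcm2 rose by 0.59 ± 0.12 or 1.51-fold (adjusted p = 0.00524). Its fellow subunit Mcm3 read 6.60, 7.47, 6.92 and 7.1 at day 0 and 7.60, 8.34, 8.36 and 7.5 at day 7. The day 0 values spread widely but stayed below all day 7 values, with a difference of 0.93 ± 0.23 or 1.90-fold (adjusted p = 0.0186). Cdc6, which loads the helicase, rose by 0.52 ± 0.14 (adjusted p = 0.0291). The other 4 helicase subunits did not pass the threshold, with differences of 0.40 (Mcm5), 0.36 (Mcm4), 0.24 (Mcm7) and -0.05 (Mcm6).

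At the replication fork itself 2 of 5 genes passed, both with weak signal. Prim1, the catalytic subunit of primase, read 3.99, 4.14, 3.97 and 4.18 at day 0 and 4.17, 4.56, 4.68 and 4.50 at day 7, so that the lowest day 7 array fell within the day 0 range, and the difference was 0.41 ± 0.12 (adjusted p = 0.0442). Pola1, the catalytic subunit of DNA polymerase alpha, read 4.41, 4.85, 4.42 and 4.38 and then 5.21, 4.82, 5.06 and 4.87, a difference of 0.47 ± 0.14 (adjusted p = 0.0498). The high day 0 value of Pola1, in replicate 2, overlapped the day 7 range. Pcna, the sliding clamp, read 6.14, 8.13, 7.43 and 7.34 at day 0 and 7.22, 8.54, 9.33 and 7.66 at day 7. The groups overlapped over much of their range, and the mean difference of 0.93 ± 0.42 did not pass (adjusted p = 0.242). Lig1, which joins Okazaki fragments, differed by 0.36 and the primase subunit Prim2 by -0.09, neither past the threshold.

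Of the enzymes that supply nucleotides, 2 of 3 rose. Tk1, thymidine kinase of the salvage route, read 7.83, 7.3, 7.66 and 7.75 at day 0 and 8.19, 8.32, 8.21 and 8.35 at day 7. Rrm1, the large subunit of ribonucleotide reductase, read 7.01, 7.1, 6.99 and 7.13 and then 7.55, 7.76, 7.92 and 7.46. Neither gene overlapped between the days, and Tk1 rose 1.55-fold (0.63 ± 0.15, adjusted p = 0.0182) and Rrm1 1.53-fold (0.61 ± 0.16, adjusted p = 0.0247). A further probe set of each gene gave smaller differences, 0.10 for Tk1 and 0.18 for Rrm1, and with all probe sets of a gene averaged neither rose. The small subunit Rrm2 differed by 0.41 ± 0.15 (adjusted p = 0.127).

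The genes of S phase entry and of chromatin copying gave 3 calls among 7. Chek1, the checkpoint kinase that answers stalled forks, read 5.35, 5.25, 5.15 and 5.26 at day 0 and 5.25, 6.36, 6.64 and 6.26 at day 7. Replicate 1 of day 7, 1 of the arrays with liver transcripts, stayed at the day 0 level while the other 3 lay above every day 0 array, and the difference was 0.88 ± 0.22 (adjusted p = 0.0197). E2f1, the factor that switches on replication genes, read 6.33, 6.23, 6.37 and 6.11 and then 6.57, 6.60, 6.87 and 6.74, a rise of 0.44 ± 0.12 without overlap (adjusted p = 0.0384). A second probe set of E2f1 differed by 0.29 and did not pass (adjusted p = 0.165, limma with adjustment over all probe sets). The cyclins E, partners of Cdk2 at S phase entry, had differences of 0.05 each (Ccne1 and Ccne2, adjusted p = 0.891 and 0.852).

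Ezh2, the H3K27 methyltransferase that keeps silent chromatin through replication, read 5.09, 5.93, 5.59 and 5.65 at day 0 and 5.97, 6.39, 6.16 and 5.95 at day 7, a rise of 0.55 ± 0.16 (adjusted p = 0.0479). Dnmt1, the maintenance DNA methyltransferase, read 7.55, 7.23, 7.46 and 7.48 and then 7.84, 7.97, 7.64 and 7.76. Its day 7 arrays all lay above day 0, yet the difference of 0.37 ± 0.14 did not pass (adjusted p = 0.132). Most of the S calls sat close to the threshold. Each of Mcm3, Prim1, Pola1, Tk1, Rrm1, Chek1, E2f1 and Ezh2 lost its call in at least 1 fit that left out a single array, while Mcm2 lost it in none of these and only with the RNA quality covariate described further on (adjusted p = 0.08).

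The cyclin and Cdk1 engine of mitosis rose in 4 of its 6 measured genes. Cdk1, the kinase that drives entry into mitosis, read 6.16, 5.66, 5.91 and 5.91 at day 0 and 7.47, 7.49, 7.32 and 7.39 at day 7. The day 7 arrays lay close together and more than 1 log2 unit above every day 0 array, and Cdk1 rose by 1.51 ± 0.20 (adjusted p = 0.000125). Cks2, a small protein that binds Cdk1 and docks its substrates, read 4.77, 5.55, 4.57 and 5.03 at day 0 and 6.59, 7.04, 7.03 and 6.51 at day 7, and rose by 1.81 ± 0.22 (adjusted p = 4.6e-05). Cyclin B2 (Ccnb2) rose 1.86-fold, from a mean of 7.25 to 8.14 (adjusted p = 0.00288), and the phosphatase Cdc25c, which frees Cdk1 from its inhibitory phosphates, by 0.70 ± 0.14 (adjusted p = 0.00552). A second probe set of Cdc25c differed by 0.53 and did not pass (adjusted p = 0.122, limma with adjustment over all probe sets). Cyclin A2 (Ccna2, 0.66 ± 0.21, adjusted p = 0.0788) and the mitotic transcription factor Foxm1 (0.29 ± 0.17, adjusted p = 0.424) did not pass.

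Among the mitotic kinases and the chromosomal passenger complex 3 of 6 rose. Birc5 (survivin), a passenger protein, read 4.23, 4.31, 4.53 and 4.30 at day 0 and 4.97, 5.12, 5.26 and 5.25 at day 7. It rose by 0.80 ± 0.13 without overlap (adjusted p = 0.000758), though all 8 values lay under background. Plk1, a kinase of centrosome maturation and mitotic exit, read 7.35, 7.59, 7.74 and 7.85 and then 7.99, 8.56, 8.54 and 8.51, a 1.70-fold rise (adjusted p = 0.00959). Further probe sets of Plk1 differed by 0.56 and 0.47 (adjusted p = 0.0295 and 0.0934, limma with adjustment over all probe sets). Aurora A (Aurka), the kinase of the spindle poles, rose by 0.73 ± 0.17 (adjusted p = 0.012). Nek2 (0.55), Aurora B (Aurkb, 0.49) and Incenp (0.31) missed the threshold, at adjusted p of 0.0561, 0.0896 and 0.208.

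The spindle checkpoint holds the cell in metaphase until the chromosomes are attached, and Cdc20 then activates the ubiquitin ligase APC/C. Mad2l1, the checkpoint protein that holds Cdc20 back, read 5.66, 5.66, 5.53 and 5.32 at day 0 and 5.98, 6.85, 7.16 and 6.77 at day 7. Cdc20 read 7.08, 6.58, 7.36 and 7.19 and then 8.38, 8.16, 8.05 and 7.93. Both rose without overlap, Mad2l1 by 1.15 ± 0.22 (adjusted p = 0.00273) and Cdc20 2.11-fold (1.08 ± 0.21, adjusted p = 0.00313), the largest fold among those with both means above background. The kinase Bub1 (0.58 ± 0.18, adjusted p = 0.061) and the APC/C partner Ube2c (0.45 ± 0.17, adjusted p = 0.142) were not past the threshold.

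Of the spindle and cytokinesis genes 8 of 9 rose. Prc1, which bundles the microtubules of the central spindle, read 6.13, 6.16, 6.29 and 6.34 at day 0 and 7.81, 7.64, 7.39 and 7.71 at day 7. The groups were tight and separate by more than 1 log2 unit, and Prc1 rose by 1.41 ± 0.16 (adjusted p = 2.37e-05). Kif20a, a kinesin of cytokinesis, read 6.24, 5.78, 6.40 and 6.56 and then 7.52, 7.42, 7.41 and 7.99, a rise of 1.34 ± 0.23 (adjusted p = 0.00147) which its second probe set also showed (1.23). The spindle protein Tacc3 rose by 1.66, the cytokinesis exchange factor Ect2 by 1.22, the depolymerase Kif2c by 1.00, the spindle motor Kif11 by 0.93, the tubulin binding protein Stmn1 by 0.90 (1.86-fold) and the central spindle protein Racgap1 by 0.70. Kif4 (0.31 ± 0.13) did not pass, and a second probe set of Stmn1 gave a difference of 0.01.

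Of 5 genes of chromosome structure 4 rose. Top2a, the topoisomerase that untangles sister chromatids, read 5.16, 5.29, 4.99 and 5.12 at day 0 and 6.73, 7.59, 7.57 and 6.83 at day 7. It rose by 2.04 ± 0.22 (adjusted p = 1.39e-05) from a day 0 level under background, with the lowest day 7 array more than 1 log2 unit above the highest of day 0. Hmgb2, a chromatin protein that bends DNA, read 3.92, 4.25, 4.02 and 3.89 and then 4.68, 4.89, 4.89 and 4.96, a rise of 0.84 ± 0.16 under background (adjusted p = 0.00281). The condensin ATPases Smc2 (1.1 ± 0.24) and Smc4 (1.05 ± 0.30, 2.07-fold) rose as well, at adjusted p of 0.00779 and 0.0422.

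Mki67, which coats mitotic chromosomes and encodes the proliferation marker Ki-67, depended on its probe set. With the probe set of higher mean it read 4.63, 4.21, 4.95 and 4.95 at day 0 and 4.68, 4.97, 5.0 and 5.74 at day 7, overlapping groups with a difference of 0.41 ± 0.21 (adjusted p = 0.318). The other probe set, looked at after its values were seen, read 3.31, 4.57, 4.51 and 4.34 at day 0 and 5.95, 6.88, 6.55 and 6.05 at day 7. There the groups did not overlap and the difference was 2.18 ± 0.32 (adjusted p = 0.000342, limma with adjustment over all probe sets). The same kind of split showed in Bub1, where 1 of 3 probe sets differed by 1.00 and another by -0.00.

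The promoters of several of these genes are printed to show which letters the replication and the mitosis genes carry where they begin. They are the 150 bases before the annotated start, from RefSeq on build GRCm38.p6, on the strand of the gene and 5′ to 3′. Capitals mark 3 motifs on either strand: the cell cycle homology region CHR (TTTGAA), the CCAAT box (CCAAT), and E2F sites, searched as TTTCCCGC, TTTCGCGC, TTTGCCGC and TTTGGCGC. The 7 genes were picked because they hold these letters: Top2a, Cdk1, Kif11 and Cdc20 are mitosis genes that rose and hold a CHR near the start, Cdc6 and Pola1 are the 2 replication genes that rose with an E2F site in the 250 bases before it, and Mcm5 holds E2F sites and did not pass.
Top2a, chr11:99024190-99024339, minus strand: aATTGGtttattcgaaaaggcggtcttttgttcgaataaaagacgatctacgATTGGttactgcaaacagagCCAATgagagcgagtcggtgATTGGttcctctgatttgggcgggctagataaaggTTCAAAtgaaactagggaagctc
Cdk1, chr10:69352913-69353062, minus strand: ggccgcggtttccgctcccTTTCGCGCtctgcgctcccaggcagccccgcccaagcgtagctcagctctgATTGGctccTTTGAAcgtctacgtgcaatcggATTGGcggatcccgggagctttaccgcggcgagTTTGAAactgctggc
Kif11, chr19:37376232-37376381, plus strand: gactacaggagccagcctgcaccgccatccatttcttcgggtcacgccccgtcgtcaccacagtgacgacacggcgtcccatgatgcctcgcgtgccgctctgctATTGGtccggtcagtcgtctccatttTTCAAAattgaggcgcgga
Cdc20, chr4:118437344-118437493, minus strand: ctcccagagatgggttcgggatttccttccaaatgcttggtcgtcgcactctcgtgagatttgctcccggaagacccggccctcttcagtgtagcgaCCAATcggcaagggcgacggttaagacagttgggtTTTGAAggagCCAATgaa
Cdc6, chr11:98908001-98908150, plus strand: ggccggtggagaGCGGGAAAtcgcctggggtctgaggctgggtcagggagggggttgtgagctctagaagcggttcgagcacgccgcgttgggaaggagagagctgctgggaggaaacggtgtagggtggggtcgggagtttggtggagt
Pola1, chrX:93632156-93632305, minus strand: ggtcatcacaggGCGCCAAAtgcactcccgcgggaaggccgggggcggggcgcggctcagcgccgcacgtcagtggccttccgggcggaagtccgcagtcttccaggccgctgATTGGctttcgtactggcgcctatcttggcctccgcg
Mcm5, chr8:75109359-75109508, plus strand: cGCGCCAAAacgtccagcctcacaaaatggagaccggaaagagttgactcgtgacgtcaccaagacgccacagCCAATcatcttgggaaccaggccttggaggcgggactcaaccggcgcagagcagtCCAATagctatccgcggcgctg

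In each of the 4 mitosis promoters a CCAAT box was followed by a CHR close to the start. Counted from the start, the last base of that CHR stood at -18 in Top2a, -14 in Kif11, -13 in Cdc20 and -10 in Cdk1. In Mcm5 the E2F letters overlap a further match that begins before the printed bases. Of the 52 genes 41 had an entry in the promoter table, 19 S and 22 G2/M. Within 250 bases before the start, the CHR letters stood in 12 of 22 G2/M and 2 of 19 S genes, against 18.26% of all 27025 genes of the table. CCAAT stood in 18 of 22 and 12 of 19, against 37.5%. An E2F site stood in 1 of 22 G2/M genes, Cdk1, and in 7 of 19 S genes, against 2.16%. With the first 50 transcribed bases added, the CHR count was 16 of 22 and the E2F count 10 of 19, against 20.2% and 2.61%. By call at ankle day 7, within the 250 bases, an E2F site stood in 3 of 27 genes that rose and 5 of 14 that did not pass, and the CHR letters in 11 of 27 and 3 of 14. Some mitosis genes rose with no CHR letters in the 250 bases. They were Cks2, Plk1, Aurka and Racgap1, which held a CCAAT box there, and further genes that held none of the motifs. Plk1, Aurka and Racgap1 held CHR letters in the first 50 transcribed bases. Of the replication genes Mcm2, Mcm3, Prim1, Tk1, Rrm1, Chek1, E2f1 and Ezh2 rose with no E2F letters in the 250 bases. Mcm3 and Ezh2 held such letters in the first 50 transcribed bases. The letters are a description of these windows, and the classes were set by gene function and not by sequence.

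**Figure D2:**
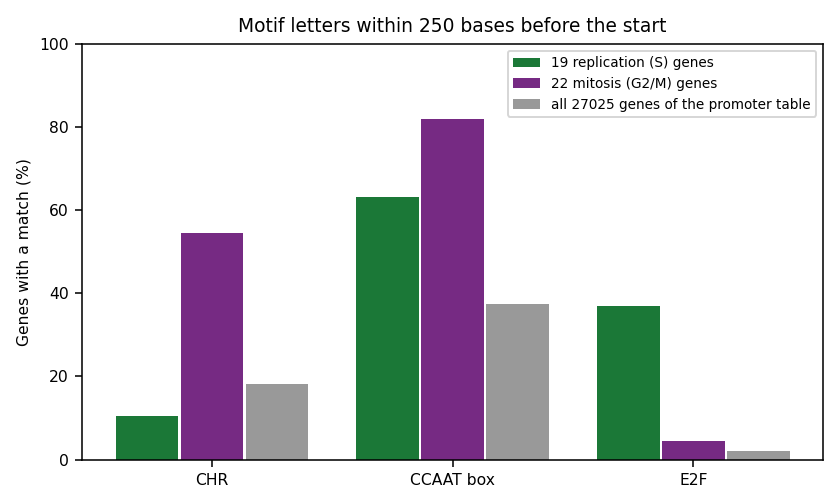
Share of genes, in percent, whose 250 bases before the start hold each motif on either strand, for 19 replication genes, 22 mitosis genes and all 27025 genes of the promoter table. CHR letters stood in 12 of 22 mitosis genes and 2 of 19 replication genes, and E2F letters in 1 and 7.

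Over the course of ankle arthritis 44 of the 52 genes had their highest mean at day 7, a description only, as the share of all genes was not computed. The others were Ccne1, Ccne2, Hells, Mcm6 and Mki67 (day 18), Pcna and Smc4 (day 12) and Prim2 (day 0). For Mki67 this rests on means of 5.14 at day 18 and 5.10 at day 7, and its other probe set was highest at day 7 (6.36, with 5.15 at day 18). At day 1 limma called 0 of 52 genes and 0 of 8251, and 0 of 52 had an unadjusted p under 0.05, as had 1.82% of all genes. At day 3 it called 0 of 52 and 19 of all genes (0.23%), while 16 of the 52 had an unadjusted p under 0.05, as had 8.62% of all genes. The median difference at day 3 was 0.24 for S and 0.35 for G2/M genes, beside -0.01 for all genes, and all 30 G2/M genes lay above 0. Prc1 had the smallest p, with a difference of 0.80 ± 0.17 (adjusted p = 0.0606), and passed in the fit without day 3 replicate 2, where 1 gene was called.

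The day 3 ankles differed among themselves. Prc1 read 7.51, 6.70 and 6.88, Cdk1 7.27, 6.13 and 6.35, and Tacc3 5.43, 3.64 and 4.33 in replicates 1, 2 and 3. Replicate 1 was the highest of the 3 in each of these genes and replicate 2 the lowest. Other genes ordered the arrays differently, and replicate 3 was the highest in Top2a. Against the day 0 mean, the G2/M median was 0.46, 0.16 and 0.48 in replicates 1, 2 and 3, and the S median 0.33, 0.11 and 0.21. Day 7 was compared with day 3 directly, and 2 of 52 genes rose, where 0.351% of all genes did: Top2a, from 6.06, 5.65 and 6.38 at day 3, by 1.15 ± 0.24 (adjusted p = 0.0338), and Cks2, from 6.06, 5.27 and 5.75, by 1.1 ± 0.23 (adjusted p = 0.0394). All 52 genes had a mean difference above 0 from day 3 to day 7, with medians of 0.21 for S and 0.53 for G2/M genes. The share of all genes above 0 is not set beside these values. The count of 2 genes that rose was unstable, with 0 calls when day 3 replicate 2 or either of replicates 2 and 3 of day 7 was left out, 1 without day 3 replicate 3, and 5 without day 3 replicate 1 or day 7 replicate 1.

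**Figure D3:**
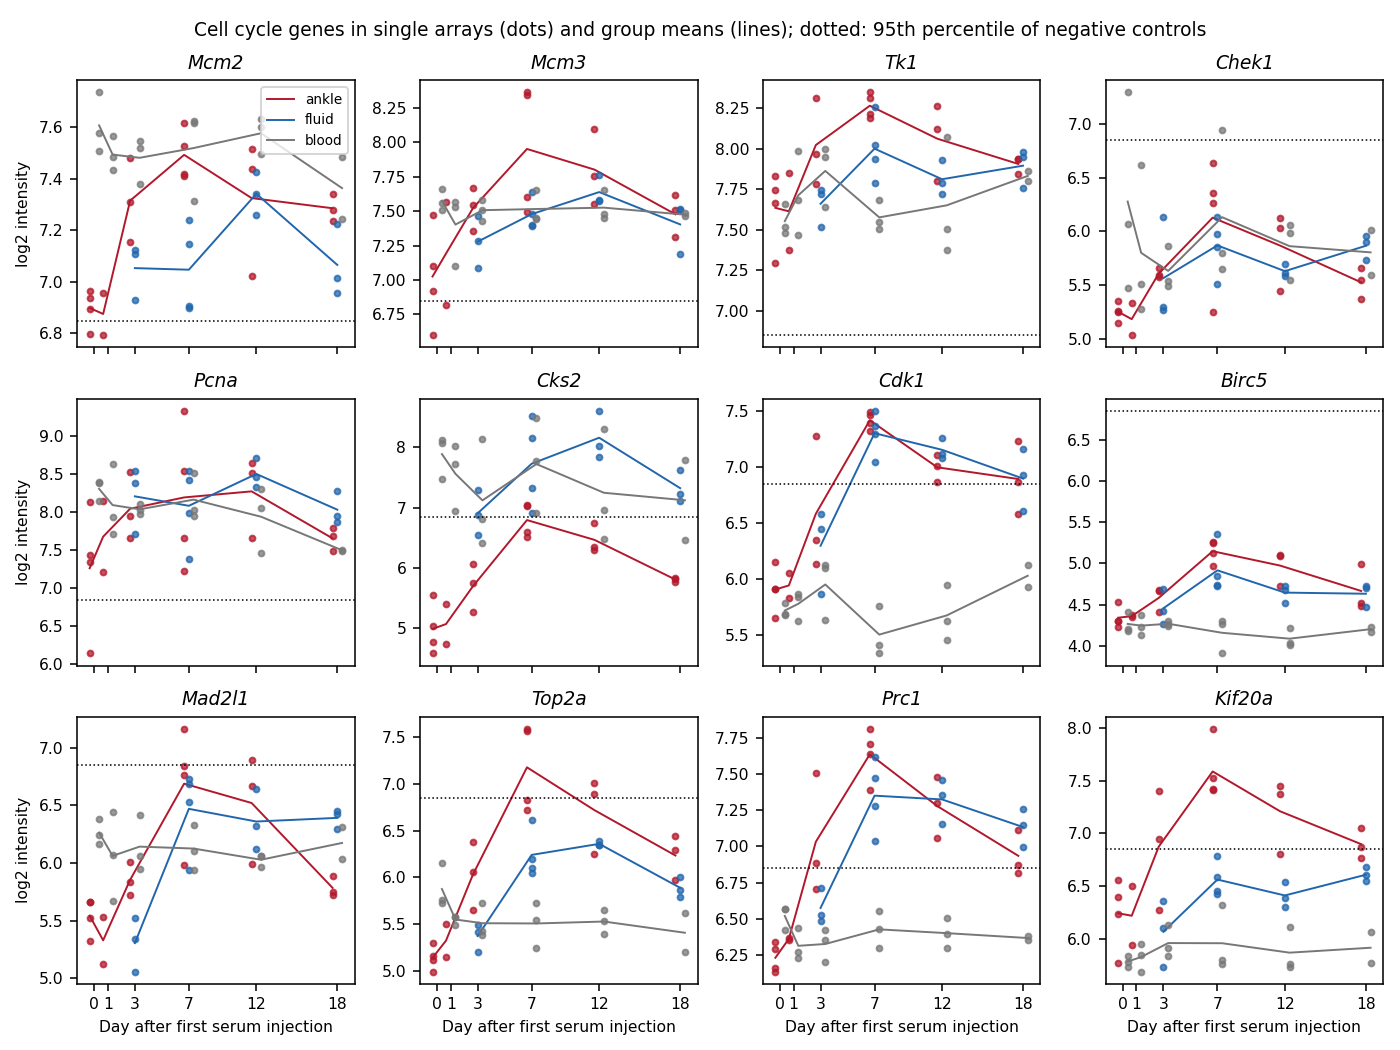
Log2 intensity of 12 cell cycle genes by day in ankle (red), synovial fluid (blue) and blood (grey), with 1 dot per array, a line through the group means and the 95th percentile of negative controls (6.85) dotted. Each panel has its own vertical scale. Cdk1, Prc1 and Top2a are highest at day 7 in ankle and stay low in blood at all days. The group means of Cks2 are higher in blood and fluid than in ankle, while single arrays overlap with ankle day 7.

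At day 12, 8 of 52 genes were still higher than at day 0, all of them G2/M genes, where 1.87% of all genes were higher. These were Top2a, Cks2, Prc1, Cdk1, Birc5, Mad2l1, Smc2 and Kif20a, and 0 S genes passed (10 of 22 had an unadjusted p under 0.05, as had 15.4% of all genes). Top2a read 6.25, 7.01 and 6.90 and lay 1.58 ± 0.24 above day 0 (adjusted p = 0.000757), Cks2 read 6.35, 6.74 and 6.30 (1.48 ± 0.23, adjusted p = 0.00106), Prc1 7.3, 7.48 and 7.06 (1.05 ± 0.17, adjusted p = 0.00134) and Cdk1 6.87, 7.01 and 7.11 (1.09 ± 0.21, adjusted p = 0.00694). None of these overlapped day 0. The median difference was 0.28 for S and 0.52 for G2/M genes, beside -0.03 for all genes. The count was 13 without day 12 replicate 1, an array with liver transcripts that was the lowest in Top2a, 5 without day 0 replicate 3, and 4 without day 12 replicate 2 or 3. It was 33 with arrays weighted by their quality and 18 with all 49 arrays in 1 fit.

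At day 18, 3 of 52 genes were higher than at day 0, where 1.13% of all genes were. Top2a read 6.44, 5.98 and 6.29 (1.1 ± 0.24, adjusted p = 0.0194), Cdk1 6.87, 6.58 and 7.23 (0.98 ± 0.21, adjusted p = 0.0207) and Prc1 6.82, 6.87 and 7.11 (0.71 ± 0.17, adjusted p = 0.0381), each above every day 0 array. The medians were 0.21 (S) and 0.34 (G2/M), beside -0.00 for all genes. The count was 0 when any of day 0 replicates 3 and 4 or day 18 replicates 1 and 3 was left out, and 14 with weighted arrays. Between day 7 and day 18 limma called 0 of 52 genes, and 5 of all genes (0.0606%), all 5 of them higher. Of the 52, 47 had a mean difference below 0 and 25 an unadjusted p under 0.05, as had 5.28% of all genes, with medians of -0.18 (S) and -0.50 (G2/M), and the largest drops by p were Cks2 (-0.99 ± 0.23, adjusted p = 0.245) and Prc1 (-0.70 ± 0.17, adjusted p = 0.288). With weighted arrays 12 genes fell from day 7 to day 18, and 2 did without day 7 replicate 1. The comparisons with day 0 share its 4 arrays.

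**Figure D4:**
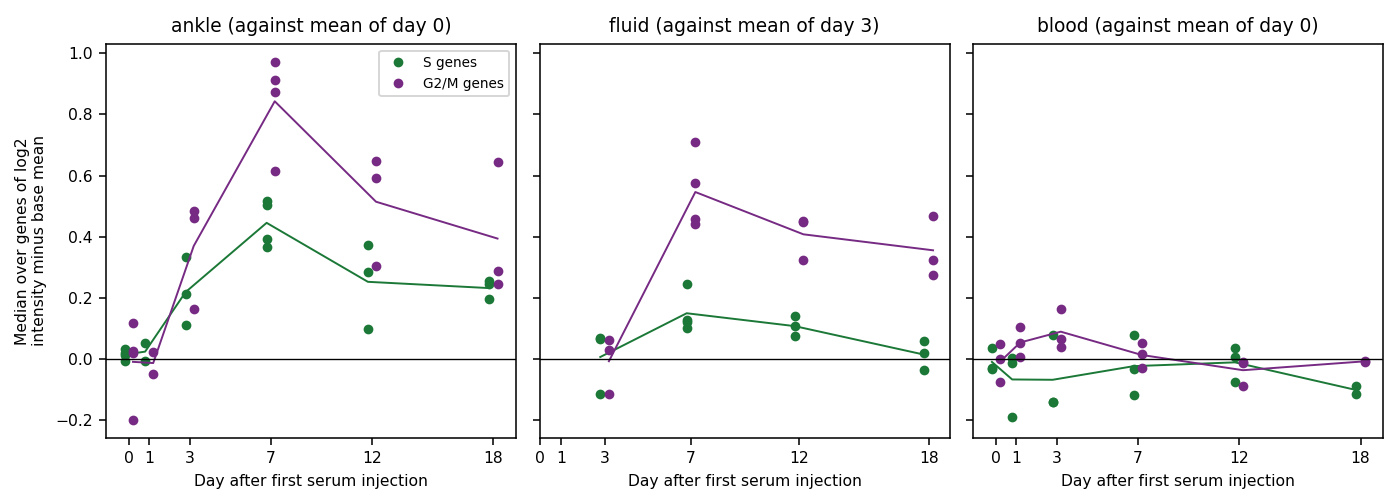
Median over 22 S genes (green) and 30 G2/M genes (purple) of log2 intensity minus the mean of the base group, day 0 in ankle and blood and day 3 in fluid, with 1 dot per array and a line through the group means. In ankle the G2/M medians run from -0.20 to 0.12 at day 0 and from 0.61 to 0.97 at day 7, and in blood all medians lie between -0.19 and 0.16.

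RNA quality moved with the day in ankle. The beta-actin ratio, log2 of its 3′ over its 5′ probe set, ran from 2.73 to 3.50 at day 0 and from 3.34 to 3.83 at day 7. With this ratio as a covariate 15 of 52 genes rose at day 7 in place of 31, while the median differences were 0.39 (S) and 0.84 (G2/M). With the ratio 3 genes passed at day 12 and 0 at day 18. Without the 4 ankle arrays with liver transcripts 33 genes rose at day 7.

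Other genes of the same processes were measured as well. At day 7 in ankle, 14 of 29 further mitosis genes rose, with Ttk (1.14), Cdca3 (1.12) and Anln (1.29) of smallest p, at a list median of 0.43. Of 33 further replication genes 6 rose, with Gmnn (0.92), Cdc7 (0.76) and Rfc5 (0.54) first, at a median of 0.16. Of the 11 G1 cyclins, Cdks and activators limma called 0 at day 7 (2 at an unadjusted p under 0.05, as had 18.7% of all genes, median 0.11), and of 19 cell cycle inhibitors and quiescence genes 1 rose, Gas2 (0.74 ± 0.21, adjusted p = 0.0415), which is known as a growth arrest gene.

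Markers of incoming and resident cells moved in the same arrays. Of 10 mature neutrophil markers 6 rose by day 7, with Mmp9 (3.77), Clec4d (3.49) and S100a8 (2.94) of smallest p, and their summed linear level went from 547.7 to 605.3 at day 0 to 2610.3 to 4446.5 at day 7. Of 13 fibroblast markers 3 rose, Pdpn (0.77), Vcam1 (1.81) and Postn (1.89), while the summed level ran from 18000.4 to 28647.8 at day 0 and from 20508.8 to 27806.9 at day 7. Of 12 monocyte and macrophage markers 2 rose, Msr1 (1.29) and Ccr2 (1.17), with sums from 4236.9 to 5386.9 and from 4041.6 to 6254.0. Both means of Pdpn and of Ccr2 lay under background. Of 12 erythroid markers 2 fell, Alas2 (-2.05) and Hba-a1 (-1.54), with sums from 7731.5 to 11306.6 and from 3189.6 to 5610.6.

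The neutrophil precursor list, whose cells divide in bone marrow, had 0 of 9 genes called at day 7 by limma (2 at an unadjusted p under 0.05, beside 18.7% of all genes), with Elane, Mpo, Prtn3 and Ctsg not above background and sums from 633.1 to 752.0 at day 0 and from 622.1 to 892.6 at day 7. At day 18 it had 4 of 9 higher (Camp, Ltf, Ngp and Chil3), when 3 cell cycle genes passed. Limma called 0 of the 9 endothelial, 9 T cell, 8 B cell, 10 muscle and 10 liver markers at day 7, with 2, 1, 0, 1 and 0 of them at an unadjusted p under 0.05 (18.7% of all genes), and for T cells Cd3e, Cd3d and Cd3g and for B cells Cd79a and Ms4a1 were not above background. Alb differed by -0.43 ± 1.18 between the days. In whole tissue fewer cells of a type and less RNA per cell cannot be told apart, and the part of each cell type in the rise was not tested.

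In blood no cell cycle gene passed the test at any day. Limma called 0 of 52 genes at days 1, 3, 7, 12 and 18 against day 0, and also 0 of all 8251 genes (0%) at each of these days. At an unadjusted p under 0.05 there were 3, 8, 2, 2 and 7 of the 52 genes, where 7.14%, 20.6%, 2.04%, 6.22% and 20.5% of all genes passed. At day 7 the medians were -0.02 for S and -0.01 for G2/M genes, beside 0.02 for all genes. Top2a read 6.15, 5.75 and 5.72 in blood at day 0 and 5.55, 5.25 and 5.73 at day 7 (-0.37 ± 0.16), and Cdk1 5.68, 5.69 and 5.79 and then 5.42, 5.76 and 5.34 (-0.21 ± 0.16). Without blood day 3 replicate 1, 4 genes passed at day 3. With arrays weighted by their quality, 15 genes passed at day 3 (12 higher, 3 lower), 11 at day 12 (6 higher, 5 lower) and 12 at day 18 (5 higher, 7 lower). The shares of all genes that passed with weights are not set beside these counts. They are therefore not read as a result about the cell cycle genes.

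Whether ankle and blood responded differently by day 7 was tested as an interaction, and 15 of 52 genes responded more in ankle and 0 less, where 1.07% of all genes responded more and 1.21% less. Top2a differed by 2.41 ± 0.29 (adjusted p = 6.45e-06), Prc1 by 1.5 ± 0.20 (adjusted p = 2.09e-05), Cdk1 by 1.72 ± 0.27 (adjusted p = 0.000213) and Birc5 by 0.91 ± 0.17 (adjusted p = 0.00232). Of the 15 genes 14 were G2/M genes, and the other was Mcm2 (0.68 ± 0.17, adjusted p = 0.0204). Cks2 had a difference of 1.98 with an SE of 0.57 and did not pass (adjusted p = 0.0642). The median difference in response was 0.41 for S and 0.87 for G2/M genes, beside -0.03 for all genes. Without blood day 0 replicate 1 the count was 8.

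**Figure D5:**
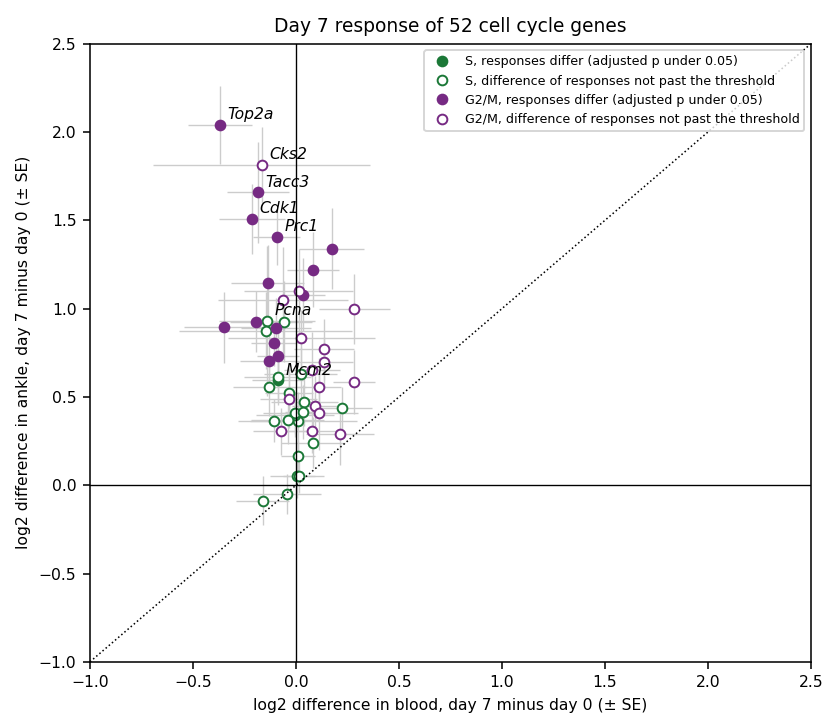
Difference in log2 intensity between day 7 and day 0 in blood (horizontal, 3 arrays a day) and ankle (vertical, 4 arrays a day) for 52 genes, with bars of 1 SE and a dotted line of equal response. Filled points mark the 15 genes whose responses differed with an adjusted p under 0.05, among them Top2a (-0.37 in blood and 2.04 in ankle).

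In synovial fluid, where day 3 was the first sample, G2/M genes rose after day 3 and S genes did not pass. At day 7, 8 of 52 genes were higher than at day 3 and 0 lower, where 2.17% of all genes were higher and 0.388% lower. They were 8 of 30 G2/M and 0 of 22 S genes, although 3 S genes had an unadjusted p under 0.05 (10.4% of all genes), and the medians were 0.50 and 0.15, beside -0.02 for all genes. Smc2 read 3.85, 4.32 and 3.88 at day 3 and 4.83, 5.18, 5.04 and 5.11 at day 7 (1.03 ± 0.14, adjusted p = 0.000672). Mad2l1 read 5.34, 5.52 and 5.06 and then 5.94, 6.68, 6.53 and 6.73 (1.16 ± 0.19, adjusted p = 0.00216). Both groups of day 7 arrays lay above all day 3 arrays, though all values of both genes lay under background.

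Top2a in fluid read 5.2, 5.49 and 5.42 at day 3 and 6.05, 6.20, 6.62 and 6.10 at day 7, a rise of 0.87 ± 0.15 (adjusted p = 0.0026). Cdk1 read 6.58, 6.45 and 5.87 and then 7.5, 7.36, 7.04 and 7.3, a rise of 1.00 ± 0.19 (adjusted p = 0.00654). Neither overlapped between the days, though all of these Top2a values lay under background. Stmn1 (1.89-fold), Prc1 (0.78), Cdc25c (0.75) and Ccnb2 (1.60-fold) were the other 4 genes, and Cdc25c lay under background at both days. The count was 5 without fluid day 3 replicate 2 or 3, and 4 in the arrays isolated during dissection.

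At day 12, 6 G2/M genes were above day 3 (Top2a, Stmn1, Mad2l1, Prc1, Smc2 and Cdk1), where 2.42% of all genes were, and at day 18, 4 (Mad2l1, Smc2, Stmn1 and Ccnb2), where 2.28% were. S genes gave 0 calls at both days, with 2 and 1 of 22 at an unadjusted p under 0.05 (12.5% and 15.1% of all genes). At day 12 Top2a read 6.34, 6.39 and 6.35 (0.99 ± 0.16, adjusted p = 0.00159) and Stmn1 rose 2.10-fold (adjusted p = 0.00459). At day 18 Mad2l1 read 6.29, 6.46 and 6.43, 1.09 ± 0.21 above day 3 (adjusted p = 0.00633), and Smc2 read 4.90, 4.86 and 4.60 (0.77 ± 0.15, adjusted p = 0.00927). These values of Top2a, Mad2l1 and Smc2 all lay under background. The day 12 count was 3 without fluid day 3 replicate 3 or day 12 replicate 1 or 3. The day 18 count was 1 without day 18 replicate 2, and 2 without day 3 replicate 1 or 3, without day 18 replicate 1 or 3, or in the arrays isolated during dissection.

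Fibroblast markers rose in the fluid arrays over the same days. Of 13, 9 were higher at day 7 than at day 3 and 8 at both later days, with Col1a2 (2.55), Lum (3.37) and Postn (2.19) of smallest p at day 7. Their summed level ran from 2340.6 to 4481.5 at day 3, from 9274.3 to 17951.5 at day 7, from 13349.7 to 19041.6 at day 12 and from 14974.4 to 17345.1 at day 18. Of the 13 markers 5 were above background at day 3 and 7, 8 and 7 at the later days, with Pdgfrb, Thy1, Pdpn, Fap and Cdh11 under it at all 4 days and Postn at days 3, 7 and 18. The mature neutrophil sum ran from 10769.5 to 15074.5 at day 3 and from 10900.5 to 20099.5 at day 7. Of the 9 neutrophil precursor markers 1 was lower, Chil3, with differences of -1.96, -2.11 and -2.39 at days 7, 12 and 18 (adjusted p = 0.00102, 0.000909 and 0.000281), and the summed level ran from 1585.3 to 1934.2 at day 3 and from 797.9 to 1124.6 at day 7. Elane, Mpo, Prtn3 and Ctsg were not above background at either day. Of the other cell cycle lists, cyclin D2 (Ccnd2), a G1 cyclin, rose by 0.70, 1.25 and 1.32 at days 7, 12 and 18, and the growth arrest genes Gas1 (2.47, 2.61 and 3.14) and Gas2 (1.55, 2.22 and 2.39) rose at all 3 days. Kif23, Anln and Cdca3 were the further mitosis genes that rose at day 7, and Pole2 the further replication gene. The beta-actin ratio moved as well, from 1.59 to 2.39 at day 3 and from 2.69 to 2.90 at day 7 in fluid. The part of the fibroblast transcripts and of RNA quality in the rise of the mitosis genes in fluid was not tested.

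Between tissues the genes differed in both directions. Over days 3 to 18 fluid differed from blood in 28 of 52 genes, 16 higher and 12 lower, while 24.8% of all genes were higher and 34% lower. Cdk1 (1.12 ± 0.09), Prc1 (0.72 ± 0.07) and Tacc3 (0.81 ± 0.11) were higher in fluid. Smc4 (1.86 lower on the log2 scale, a 3.64-fold difference), Racgap1, Mcm2, Hmgb2, Ezh2, Mcm7, Mcm4, Ccne1, Aurkb, Mcm5, Lig1 and Ube2c were lower. Of the 22 S genes 7 were lower, a share near that of all genes. The helicase subunits Mcm2, Mcm4, Mcm5 and Mcm7 were among them, and Mcm3 and Mcm6 were not.

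Fluid lay below ankle of the same days in 17 genes and above it in 3, where 19.4% of all genes were lower and 18.7% higher. Stmn1 was 2.03-fold lower in fluid (adjusted p = 3.95e-09), and Kif20a (-0.73) and Racgap1 (-0.44) were lower too, while Cks2 (1.34 ± 0.15), Hmgb2 (0.52 ± 0.11) and Prim2 (0.22 ± 0.09) were higher. With the beta-actin ratio as covariate 4 of the 52 genes differed, 1 higher and 3 lower. At day 0 ankle lay below blood in 15 genes and above it in 1, Kif2c (0.53 ± 0.20), where 19.8% of all genes were lower and 22.4% higher. Hmgb2 (-2.20 ± 0.28), Smc4 (5.67-fold), Cks2 (-2.91 ± 0.40) and Mcm2 (1.63-fold) were the lower genes of smallest p. Ankle Smc4 read 6.23, 7.71, 7.37 and 7.23 and blood Smc4 9.69, 9.32 and 9.91.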

How the data were processed

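Expression was measured on 49 Affymetrix arrays in 16 groups of tissue and day, and samples were grouped by their labels. The authors deposited 1 table of linear intensity values for 12488 probe sets, summarised with RMA per the submitters' processing notes, with its version not given in the sources used here. Values were taken as log2. Of the probe sets 10833 had 1 gene symbol, 396 several and 1259 none, and 66 were controls. For each of 8251 genes the probe set of highest mean was used, a choice that mattered for 2073 genes and 15 of the cell cycle genes. The test was moderated (limma 3.58.1, R version 4.3.3, eBayes with trend), two-sided, with Benjamini-Hochberg adjustment over 8251 genes and a threshold of 0.05, and fitted within each tissue, or over the arrays of both tissues for comparisons between tissues. Scripts were tested on simulated data. Python 3.11.15, pandas 2.3.3, numpy 2.4.6 and matplotlib 3.10.9 were used for descriptions and figures. Array precision is limited by the number of arrays, and no 2 arrays held identical values.

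Values in every array were given for the 2 genes of smallest p at ankle day 7 in each of 10 role classes and for Top2a, Cdk1, Mki67 and Pcna, elsewhere for up to 4 genes of smallest p, and up to 3 genes were named of each other list. Genes beyond this rule, such as Tacc3 at day 3, were chosen after their values were seen. The members and lists were chosen with earlier results of these data known. Samples of the same replicate number deviated together, with every correlation over 0.1, between ankle days 3 and 0 (0.20 to 0.54), ankle days 7 and 3 (0.55 to 0.72), fluid days 7 and 3 (0.53 to 0.68), blood days 1 and 0 (0.49 to 0.61) and blood days 3 and 0 (0.17 to 0.46). The same held for ankle days 1 and 0, with 2 pairs (0.71 to 0.73). The pairing comes from these data and the numbers in the labels. Alternatives were quantile normalization, median centring, a filter and a floor on dim signal, an added constant, the mean of all probe sets, array weights, all arrays in 1 fit, a replicate block, leaving out arrays, the beta-actin ratio as covariate, and only fluid isolated during dissection. The other Mki67 probe set was added after seeing the data. Promoters came from RefSeq on GRCm38.p6.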

Additional observations from a re-analysis of the deposited data

Results flagged for a closer look

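In 3 of 66 groups of 4 arrays examined among the named genes, 1 array stood apart from the others, where chance gives about 1 in 20. Pola1 read 4.85 in ankle day 0 replicate 2, and 4.38 to 4.42 in the other 3 arrays. Rrm1 read 7.81 in fluid day 7 replicate 1, an array washed out of the joint, and 7.1 to 7.14 in the others. Plk1 read 7.99 in ankle day 7 replicate 1, an array with liver transcripts, and 8.51 to 8.56 in the others.

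The day 7 response differed between ankle and blood in 8 of the 22 named genes by the interaction test in limma. Of all genes 1.07% responded more in ankle. Most named genes were picked by their p at ankle day 7, and the same ankle arrays enter this test. The count is therefore no separate support. The ankle response exceeded that of blood by 2.41 in Top2a (adjusted p = 6.45e-06), 1.72 in Cdk1 (0.000213), 1.5 in Prc1 (2.09e-05), 1.28 in Mad2l1 (0.0143), 1.17 in Kif20a (0.0331), 1.04 in Cdc20 (0.0188), 0.91 in Birc5 (0.00232) and 0.68 in Mcm2 (0.0204).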

How the results depend on the processing

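Counts are of the 52 genes. For the alternative settings, here and above, the shares of all genes are not set beside them. A changed count may therefore not be particular to these genes. With array weights the counts were 4 at ankle day 3, 33 at day 12, 14 at day 18, 14 for day 7 against day 3 and 12 for day 18 against day 7. They were 15, 17 and 21 in fluid at days 7, 12 and 18, 15, 11 and 12 in blood at days 3, 12 and 18, 32 for fluid against ankle, 26 for ankle against blood and 24 for the difference in response. With all 49 arrays in 1 fit they were 3 at ankle day 3, 18 at day 12, 6 for day 7 against day 3 and 3 for day 18 against day 7, and without the arrays with liver transcripts 14 at day 12, 6 and 3. With the beta-actin ratio as covariate they were 15 at ankle day 7, 3 at day 12, 0 at day 18, 1 for day 7 against day 3 and 4 for fluid against ankle. Quantile normalization and the filter on dim genes each gave 1 at ankle day 3, and median centring 1 for day 7 against day 3. Fluid isolated during dissection gave 4 at day 7 and 2 at day 18. The cause was not tested.

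At ankle day 7 the S median was 0.55 with the filter on dim genes and 0.33 with 16 added to intensities, and the G2/M median 0.65 with a floor and 0.61 with 16 added. Mki67 in fluid against blood turned to 0.29 higher with the mean of all probe sets (adjusted p = 0.018). Leaving out single arrays gave 0 to 0 at ankle day 1, 0 to 1 at day 3, 22 to 33 at day 7, 4 to 13 at day 12, 0 to 3 at day 18, 0 to 5 for day 7 against day 3 and 0 to 2 for day 18 against day 7. Fluid gave 5 to 8, 3 to 5 and 1 to 3, and blood 0 to 4 at day 3 and 0 to 0 at the other days. Fluid against blood gave 24 to 29, fluid against ankle 16 to 22, ankle against blood 11 to 18 and the difference in response 8 to 17. The day 7 medians ran from 0.40 to 0.44 (S) and from 0.79 to 0.90 (G2/M).

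With the replicate number as a block 7 genes passed at ankle day 18, where the numbers do not pair the samples by the rule used, and 35 at day 7. The block moved no other count by over 1.5 times. Of the named genes' values under the alternatives, 2196 kept direction and side of the threshold, 102 lost and 52 gained the call, and 1 reversed. Signals under background limit 29 of the 52 genes.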
